A study of Homo sapiens with 8 samples.

Results

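The siRNA siDONSON-2 was compared with siDONSON-1 and siDONSON-3 in SBC-3 cells, a human small cell lung cancer line. All 3 siRNAs are directed against *DONSON*. The comparison used 3 of the 8 arrays of the series, 1 array for each siRNA, and set siDONSON-2 (1 array) against the mean of siDONSON-1 and siDONSON-3 (2 arrays). On each array, RNA of siRNA-transfected SBC-3 cells was labeled with Cy5 (red) and RNA of control SBC-3 cells with Cy3 (green). The labels call the control both mock and not transfected, and no array of a neutral siRNA was analysed here. The other 5 arrays hold EBC-1 cells and SK-MES-1 cells that received *miR-150-3p*, and A549 cells with *LOXL2* edited. No siRNA dose or harvest time is given in the sources used here.

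Each value below is a log2 ratio of red over green, so that 0 is the level of the control cells, or a difference between such ratios. A gene was measured when it had a probe well above background in at least 1 channel on all 3 arrays, which held for 14443 of 22439 genes named on the array. At 12437 of them, every probe was well above background in both channels on all 3 arrays. As each siRNA has 1 array and no dye was swapped, no spread between cultures or of the dyes is known for any siRNA. An array gives a level per amount of labeled RNA and cannot tell fewer cells of a kind from less RNA per cell.

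An siRNA guides the Argonaute protein to its target transcript, which is then cut. The same guide can also lower transcripts that match only its seed, a short stretch near its 5′ end, and such unintended targets differ from one siRNA to the next even where the intended target is the same. Several siRNAs against a gene are used for this reason. *DONSON* encodes a protein of the DNA replication machinery that acts at replication forks and in the loading of the replicative helicase. The sequences of the 3 siRNAs were not analysed here, so seed matches were not searched.

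*DONSON* itself was low on every array. Its log2 ratio was -2.15 with siDONSON-1, -2.11 with siDONSON-3 and -1.79 with siDONSON-2. These ratios correspond to 22.6%, 23.1% and 28.9% of the control level. The siDONSON-2 array was the highest of the 3, by 0.34 over the mean of the others, and the software's error of that difference was also 0.34 (limma, adjusted p = 0.658). A single probe measured the gene.

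Away from *DONSON*, the siDONSON-2 array stood farther from each of the other arrays than those stood from each other. The SD of the difference over all genes was 0.58 between siDONSON-2 and siDONSON-1, 0.53 between siDONSON-2 and siDONSON-3, and 0.46 between siDONSON-1 and siDONSON-3. Genes more than 1 log2 unit apart numbered 1127, 882 and 606 in the same order. At genes bright in both channels, the control channel differed little between arrays, with SDs of 0.15 to 0.16, against 0.39 to 0.53 for the siRNA channel.

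In a limma fit across all genes, 0 of 14443 (0%) passed an adjusted p of 0.05, and 1433 (9.92%) had an unadjusted p under 0.05. The spread in that fit is the gap between siDONSON-1 and siDONSON-3, with 1 residual degree of freedom, and the lone siDONSON-2 array is assumed to vary like them. Fits that add the *LOXL2* edited arrays take spread from edited A549 cells, which is not the spread between siRNA-treated SBC-3 cultures. When the *LOXL2* edited arrays also informed the spread, limma called 97 genes higher (0.711% of 13640) and 173 lower (1.27%) with siDONSON-2. Leaving out siDONSON-1 or siDONSON-3, with the spread then taken from the *LOXL2* edited arrays, gave 1023 or 1748 calls. Genes are therefore described by size. A gene is called higher or lower here when siDONSON-2 lay more than 1 log2 unit (2-fold) above or below both other arrays, a rule that gives no p. By it, 135 genes (0.935%) were higher and 277 (1.92%) lower, and 86 and 189 of these were bright in both channels on all 3 arrays. With normexp background correction and loess dye normalization, which were changed together, 15 were higher and 37 lower, all of them among the former. By the smaller of a gene's differences from the other arrays, the genes nearest to the rule were *DDX11-AS1* at 1.001 inside and *HBA2* at 0.999 outside, and *CASP4* at -1.001 inside and *IL17RD* at -0.998 outside.

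**Figure D1:**
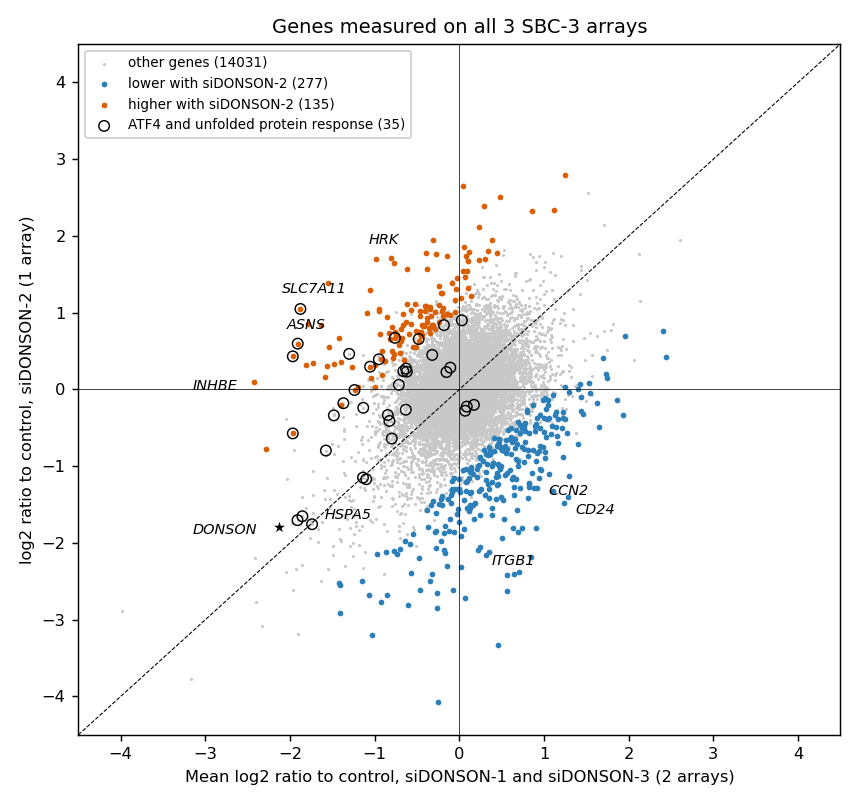
Log2 ratio with siDONSON-2 (vertical, 1 array) against the mean of siDONSON-1 and siDONSON-3 (horizontal, 2 arrays), 1 point per gene, with the 135 higher genes in orange, the 277 lower genes in blue, the 35 measured ATF4 and unfolded protein response genes circled and *DONSON* as a star. Points on the dashed line have equal values; *DONSON* lies near it, and most circled genes lie above it.

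The higher genes were mostly below the control with siDONSON-1 and siDONSON-3 and above it with siDONSON-2. Their medians were -0.57 and -0.45 with those siRNAs and 0.88 with siDONSON-2, and 99 of 135 lay on the opposite side of the control from both other arrays. For 46 genes siDONSON-2 alone was more than 1 log2 unit from the control. For 19 it was siDONSON-1 and siDONSON-3 that were more than 1 below the control, while siDONSON-2 was within 1 of it. The lower genes had the reverse order, with medians of 0.51, 0.42 and -1.09, and 175 of 277 lay on the opposite side of the control. Here siDONSON-2 alone was beyond 1 log2 unit at 116 genes. As these genes were chosen by their values on the same arrays, the medians describe them and test nothing.

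The 24 genes bright in both channels with the largest differences, 12 in each direction, are named next. Their adjusted p in limma was 0.453 to 0.456. With normexp and loess their differences were 0.173 to 0.975 times those given here, in the same direction. Without the filter on dim probes, the differences of *SCP2*, *SPTBN1*, *PLAC8* and *PAX6* were -0.41, 0.43, -0.96 and 1.19.

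Several of the 12 named higher genes act in amino acid supply or in the ATF4 response. *SLC7A11*, the cystine transporter, was at -2.53 with siDONSON-1, -1.23 with siDONSON-3 and 1.05 with siDONSON-2, a difference of 2.93. *CTH*, which makes cysteine from cystathionine, was at -2.08, -1.51 and 0.85 in the same order. *ASNS*, asparagine synthetase, was at -1.88, -1.94 and 0.60, and the gap between siDONSON-1 and siDONSON-3 was small beside its difference of 2.51. In all 3 genes siDONSON-2 was above the control and the others were far below it. *TRIB3*, a pseudokinase that restrains ATF4 signaling, was at -2.12, -1.81 and 0.43. *INHBE*, an inhibin beta subunit that is induced by endoplasmic reticulum stress, was at -2.87, -1.98 and 0.09, so that siDONSON-2 lay at the control level. *HRK*, a BH3-only member of the BCL2 family that promotes apoptosis, was at -1.44, -0.53 and 1.70.

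The other named higher genes had varied roles. *VLDLR-AS1*, an antisense RNA of the VLDL receptor gene, had the largest difference at 2.95, with -1.46, -1.65 and 1.39. The receptor gene *VLDLR* itself was at -0.36, 0.06 and 0.23. *FUT1*, a fucosyltransferase that makes the H antigen, was at -1.78, -1.49 and 0.83. *SPTBN1*, a spectrin of the membrane skeleton, was at -1.31, -0.80 and 1.29. For these genes as well, the groups lay on opposite sides of the control. *CCNO*, a cyclin-like gene needed for multiciliated cells, was at -0.67, -0.57 and 1.57. *PAX6*, a developmental transcription factor, was at -0.48, -0.31 and 1.77. *BABAM2-AS1*, an antisense RNA, was the exception to the pattern, since siDONSON-3 was also above the control, at 0.58, with -0.50 for siDONSON-1 and 2.65 for siDONSON-2.

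**Figure D2:**
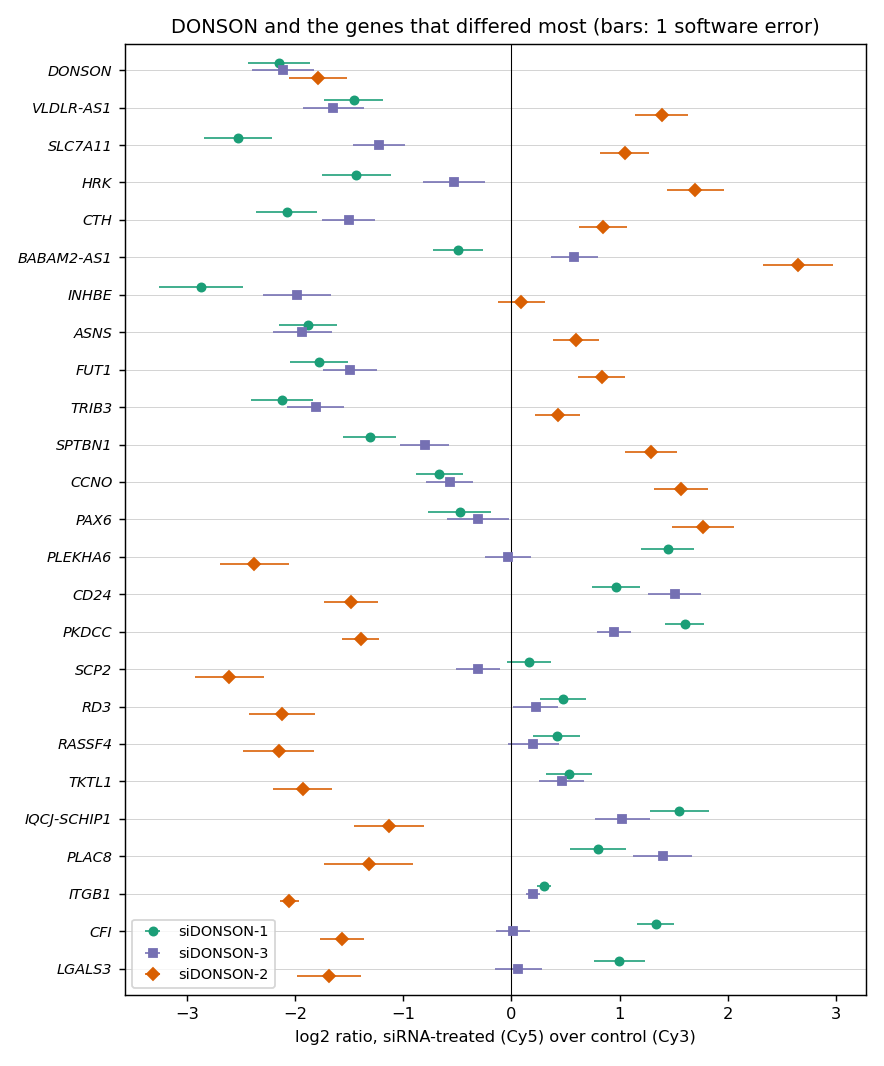
Log2 ratio to the control on each of the 3 arrays for *DONSON* and the 24 genes named for the largest differences, with bars of 1 software error of that array's value. At every gene but *DONSON* the orange siDONSON-2 point is apart from both others, to the right for the 12 higher genes and to the left for the 12 lower ones.

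ATF4 is a transcription factor whose translation rises when eIF2 alpha is phosphorylated, and its targets make, import and charge amino acids. The unfolded protein response, which reacts to misfolded protein in the endoplasmic reticulum, acts in part through ATF4 and in part through XBP1 and ATF6, which induce chaperones. All 35 genes of a list of these responses were measured. The list was chosen with earlier results of these data known, so the values below describe it and test nothing. The list's median was -0.92 with siDONSON-1, -0.76 with siDONSON-3 and -0.01 with siDONSON-2, and its median difference was 0.85 against 0.01 over all genes. On the siDONSON-2 array, 28 of 35 members were above both other arrays (37.9% of all genes were) and 3 below both (35.6% of all genes). By the 2-fold rule 7 were higher and 0 lower, against 0.935% and 1.92% of all genes. The median difference stayed above 0 in all 8 alternatives, from 0.45, with normexp and loess, to 0.87.

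The 7 members past the rule were *SLC7A11*, *ASNS* and *TRIB3*, given above, and *MTHFD2*, *HERPUD1*, *PCK2* and *XBP1*. *MTHFD2*, of mitochondrial folate metabolism, was at -0.92 with siDONSON-1, -0.60 with siDONSON-3 and 0.67 with siDONSON-2. *PCK2*, the mitochondrial PEP carboxykinase, was at -0.89, -1.22 and 0.30. *XBP1*, a transcription factor of the unfolded protein response, was at -1.16, -1.32 and -0.01. These genes were at or above the control with siDONSON-2 only. *HERPUD1*, which serves the degradation of endoplasmic reticulum proteins, was below the control with all 3 siRNAs, at -1.93, -2.004 and -0.57. *CHAC1*, a glutathione-degrading enzyme, had a difference of 1.76 but missed the rule, because siDONSON-3 was at -0.32, with -2.29 for siDONSON-1 and 0.46 for siDONSON-2. *ATF4* itself was at -0.83, -0.41 and 0.23.

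Some members that serve protein folding differed little between the arrays. The following were chosen after their values were seen. *HSPA5*, the chaperone BiP, was at -1.51 with siDONSON-1, -1.97 with siDONSON-3 and -1.76 with siDONSON-2. *HSP90B1*, its partner GRP94, was at -1.17, -1.11 and -1.15, and *CALR*, calreticulin, at -1.03, -1.17 and -1.17. These chaperones were low on all 3 arrays, and the arrays differed little. *PDIA4*, a disulfide isomerase, was at -1.90, -1.81 and -1.65. The co-chaperone *DNAJB9* was at -0.10, -0.54 and 0.45, a difference of 0.77. *DNAJC3*, another co-chaperone, was at -0.997, -2.16 and -0.80, a difference of 0.78. Its siDONSON-2 value was only 0.20 above that of siDONSON-1, and the siDONSON-3 value was far below both.

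**Figure D3:**
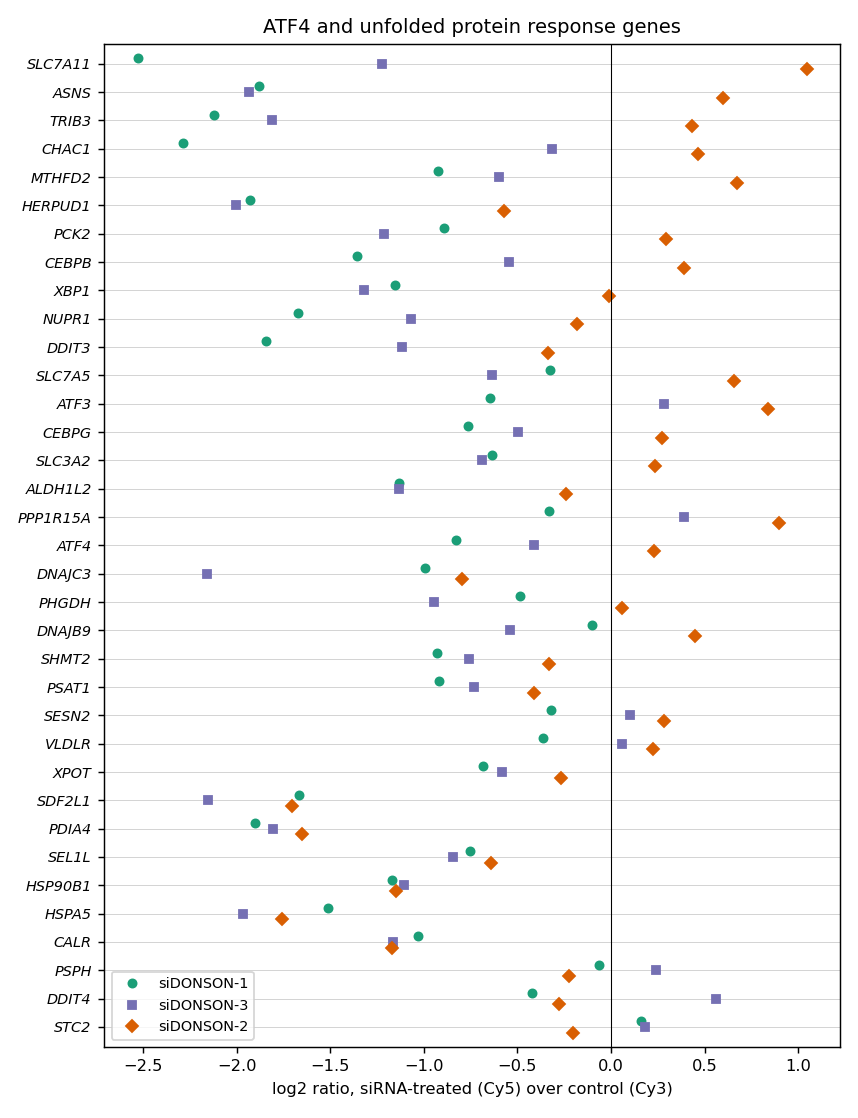
Log2 ratio to the control of the 35 ATF4 and unfolded protein response genes on the 3 arrays, ordered by the difference of siDONSON-2 from the mean of the others. The orange siDONSON-2 points lie right of both others for most genes in the upper rows and close to them for the chaperones *HSPA5*, *HSP90B1* and *CALR* near the foot.

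Further genes of amino acid use stood among the 135 higher genes and were picked after their values were seen. *SLC6A9*, a glycine transporter, was at -1.56 with siDONSON-1, -1.28 with siDONSON-3 and 0.67 with siDONSON-2. *SLC43A1*, which carries large neutral amino acids, was at -1.62, -1.54 and 0.16. *SLC1A5* and *SLC7A1*, carriers of glutamine and of cationic amino acids, had differences of 1.20 and 1.17. *ATF5*, a relative of ATF4, was at -1.47, -1.66 and 0.31. *GPT2* and *ASS1*, which make alanine and argininosuccinate, had differences of 1.47 and 1.19. Of 19 measured cytosolic aminoacyl-tRNA synthetases, which charge tRNAs, 13 (68.4%) were above both other arrays, against 37.9% of all genes. Of these synthetases 0 passed the 2-fold rule, by which 0.935% of all genes were higher and 1.92% lower. The median difference was 0.40. The list was added after the values were seen. *CARS1*, for cysteine, was at -1.05, -0.75 and 0.12, while *QARS1*, for glutamine, was at 0.20, 0.10 and -0.12. *EIF2AK4* encodes GCN2, the eIF2 alpha kinase that senses uncharged tRNA. It went the other way, at 0.01, 0.16 and -1.54.

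Promoters were searched for the composite C/EBP-ATF site, written TGATGNAA on either strand, which ATF4 binds with a C/EBP partner. The site was added after the values of ATF4 targets were seen. It was present in 6 of 30 promoters of the list (20.0%), in 7 of 100 promoters of higher genes (7%), in 12 of 214 of lower genes (5.61%) and in 2.67% of the promoters of all genes measured. Over all 35116 promoters of the table, windows of 250 bases before to 50 after the start, the share was 3.62%. The list was chosen for genes of the ATF4 response, so its share does not bear on siDONSON-2. *ASNS* and *HERPUD1* hold the site and are counted both in the list and among the higher genes. The sequences of 4 genes with large differences are given because they show the site in its place, in capitals, in RefSeq sequence of GRCh38.p14. The *ASNS* site begins 68 bases before the start, the *HRK* site 75, the *HERPUD1* site 176 and the *CHAC1* site 209.
ASNS, chr7:97872419-97872526, minus strand: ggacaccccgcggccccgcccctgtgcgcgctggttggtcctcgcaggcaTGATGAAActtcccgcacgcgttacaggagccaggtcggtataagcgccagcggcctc
HRK, chr12:116881459-116881566, minus strand: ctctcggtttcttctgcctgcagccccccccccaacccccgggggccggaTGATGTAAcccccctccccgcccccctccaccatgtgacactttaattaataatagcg
HERPUD1, chr16:56931916-56932023, plus strand: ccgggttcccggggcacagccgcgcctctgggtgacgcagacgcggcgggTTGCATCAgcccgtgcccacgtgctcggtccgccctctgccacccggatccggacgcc
CHAC1, chr15:40953221-40953319, plus strand: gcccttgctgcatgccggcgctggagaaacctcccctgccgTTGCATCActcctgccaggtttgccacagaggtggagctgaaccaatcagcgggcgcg
In *HERPUD1* and *CHAC1* the site reads on the opposite strand. Its presence in these letters is a description and not evidence of binding in these cells.

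Other motifs were searched in the same windows on both strands. The AP-1 site TGANTCA was in 14.02% of promoters of lower genes, 6% of higher genes and 7.04% of all genes measured. CCAAT was in 76.7% of the promoters of the ATF4 list, against 42.7% of all genes measured, and in 36.0% and 47.2% of higher and lower genes. The E2F sites TTTCGCGC or TTTCCCGC were in 5.00% of higher, 2.34% of lower and 4.10% of all genes measured. The CRE site TGACGTCA was in 4%, 4.67% and 3.64%, and the GC box GGGGCGG in 54.0%, 48.6% and 55.5%, in the same order. An ISRE-like motif was in 5.00%, 6.54% and 3.68%. The SRF motif was rare, in 8 of 11241 promoters of all genes measured (0.071%) and in 0 of either set. Matches of different motifs can overlap and were counted separately.

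The BCL2 family holds guardians and inducers of mitochondrial apoptosis. Its 19 measured members had a median difference of -0.05. By the 2-fold rule 2 were higher and 0 lower, against 0.935% and 1.92% of all genes. Besides *HRK*, the other higher member was *BIK*, a BH3-only gene, at -0.20 with siDONSON-1, 0.09 with siDONSON-3 and 1.16 with siDONSON-2. *PMAIP1*, which encodes NOXA, was at -1.12, 0.23 and 0.76, so that only siDONSON-1 was far from siDONSON-2. *BCL2L10*, an antiapoptotic member, was at 1.795, 1.62 and 0.77, but was not bright in both channels on all 3 arrays. The p53 targets had a median difference of -0.15, with 0 members past the rule in either direction, and it was 0.04 without siDONSON-3. *BTG2*, an antiproliferative p53 target, was at 1.04, 0.44 and -0.52, and *CDKN1A*, the cell cycle inhibitor p21, at 0.86, 0.46 and 1.22.

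The medians of S phase and replisome genes were above those of both other arrays with siDONSON-2, and the median of G2/M genes was below. Of 43 S phase genes, 32 (74.4%) were above both other arrays, against 37.9% of all genes. The median difference was 0.35. By the 2-fold rule 2 of the 43 were higher and 0 lower, against 0.935% and 1.92% of all genes. *CCNE2*, a cyclin that drives entry into S phase, was at -0.86 with siDONSON-1, -0.52 with siDONSON-3 and 0.63 with siDONSON-2. *CDC6*, which loads the MCM helicase at origins, was at -0.96, -0.87 and 0.19. Both were below the control with the other siRNAs and above it with siDONSON-2. Of 35 replisome and origin firing genes, *DONSON* among them, 23 (65.7%) were above both. The median difference was 0.23, and *CDC6* was the single member past the rule. The replisome median difference was 0.14 without siDONSON-3 and 0.093 with normexp and loess. *CDC45*, a part of the replicative helicase, was at -0.87, -0.67 and 0.10, while *ORC1*, of the origin recognition complex, was at -0.36, -0.38 and -1.04.

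The replication-dependent histones, which are made in S phase, were above both other arrays at 31 of 36 measured genes (86.1%, against 37.9% of all genes). The median difference was 0.54. By the 2-fold rule 0 were higher and 0 lower, against 0.935% and 1.92% of all genes. Their medians were -0.48 with siDONSON-1, -0.11 with siDONSON-3 and 0.28 with siDONSON-2. The largest difference was 0.96, at *H4C5*, with -0.48, -0.18 and 0.63. siDONSON-3 was thus between the others, and without siDONSON-1 the list's median difference was 0.35. Histone genes are closely alike in sequence, and probes may share signal.

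Of 52 measured G2/M genes, 45 (86.5%) were below both other arrays, against 35.6% of all genes, with a median difference of -0.50. Their medians were 0.05 with siDONSON-1, -0.02 with siDONSON-3 and -0.44 with siDONSON-2. The 2 members past the rule were *TOP2A* and *CDC20*, both lower, while 1.92% of all genes were lower by it. *TOP2A*, the topoisomerase that untangles chromosomes, was at 0.29, 0.21 and -0.90, and *CDC20*, an activator of the anaphase-promoting complex, was at 0.28, 0.21 and -0.88. In both genes siDONSON-2 alone was below the control. *KIF20A*, a kinesin of cytokinesis, had the largest difference at -1.34, with 0.53, -0.24 and -1.20, and *MKI67*, the proliferation marker Ki-67, was at 0.29, -0.29 and -0.93. The condensin gene *NCAPD2* was at 0.04, -0.02 and -0.87.

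**Figure D4:**
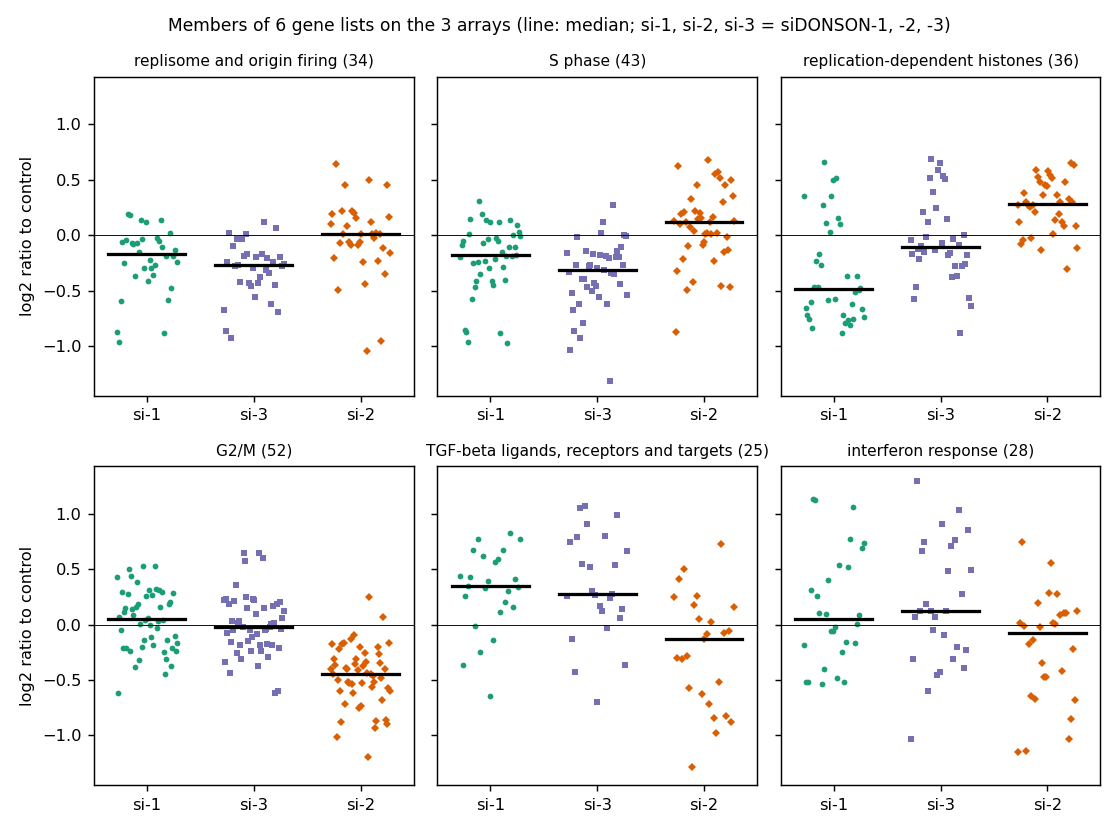
Log2 ratio to the control of the members of 6 gene lists, 1 point per gene, on the arrays of siDONSON-1, siDONSON-3 and siDONSON-2, with the median as a line and *DONSON* left out of the replisome panel. The siDONSON-2 median is the highest of the 3 arrays in the upper panels and the lowest in the lower panels.

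The 12 named lower genes had varied roles. *PLEKHA6*, a pleckstrin homology protein, had the largest difference at -3.09, with 1.45 for siDONSON-1, -0.03 for siDONSON-3 and -2.38 for siDONSON-2. *CD24*, a surface glycoprotein of epithelial and progenitor cells, was at 0.96, 1.51 and -1.48. *PKDCC*, a secreted kinase that phosphorylates matrix proteins, was at 1.60, 0.95 and -1.40. *CD24* and *PKDCC* were well above the control with both other siRNAs and well below it with siDONSON-2. *SCP2*, a lipid carrier of peroxisomes, was at 0.16, -0.31 and -2.61. *ITGB1*, the beta 1 subunit of integrins, was at 0.30, 0.20 and -2.06, and its error of the difference, 0.10, was the smallest of the 24 named genes. For *SCP2* and *ITGB1* the other siRNAs lay near the control.

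*TKTL1*, a transketolase-like gene, was at 0.53 with siDONSON-1, 0.47 with siDONSON-3 and -1.93 with siDONSON-2. *RD3*, a retinal gene that inhibits guanylate cyclase, was at 0.48, 0.22 and -2.12, and *RASSF4*, a Ras association domain gene, was at 0.42, 0.20 and -2.15. These genes had small gaps between siDONSON-1 and siDONSON-3. *IQCJ-SCHIP1*, a readthrough gene, was at 1.55, 1.03 and -1.13, and *SCHIP1*, which it contains, had a difference of -1.72. *PLAC8* was at 0.80, 1.40 and -1.32. *CFI*, the complement factor I protease, was at 1.34, 0.02 and -1.57, and *LGALS3*, galectin 3, was at 0.999, 0.06 and -1.69. In the last pair siDONSON-1 and siDONSON-3 were themselves far apart.

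TGF-beta ligands signal through receptor kinases to SMAD transcription factors, which induce matrix and adhesion genes. Of 25 measured genes of this pathway, 17 (68%) were below both other arrays and 3 (12%) above both. Over all genes these shares were 35.6% and 37.9%. The median difference of the pathway genes was -0.56. The medians were 0.34 with siDONSON-1, 0.28 with siDONSON-3 and -0.13 with siDONSON-2. The median difference was negative in all 8 alternatives, from -0.73 without siDONSON-1 to -0.17 with normexp and loess. *CCN2*, a matrix protein and classical target, was at 0.77, 1.07 and -1.28. *SMAD6*, an inhibitory SMAD, was at 0.67, 0.24 and -0.98. These were the 2 members past the rule, both lower, while 1.92% of all genes were lower by it. Receptors and transducers were also among the largest differences, with *BMPR2* at 0.67, 1.05 and -0.28 and *SMAD2* at 0.56, 0.13 and -0.71. Of this pair *BMPR2* was not bright in both channels on all 3 arrays. The ligand gene *TGFB1* was at 0.30, 0.54 and 0.72, and thus not lower with siDONSON-2.

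Lists of matrix, adhesion and contractile genes and of YAP and TEAD targets were added after the values were seen. YAP is a coactivator of TEAD factors that responds to cell shape. Of 37 measured matrix, adhesion and contractile genes, 22 (59.5%) were below both other arrays, against 35.6% of all genes. By the 2-fold rule 7 were lower, against 1.92% of all genes, and the median difference was -0.25. That median was -0.51 without siDONSON-1 and -0.11 with normexp and loess. Besides *ITGB1*, these were *SPARC*, *CALD1*, *CAV1*, *COL1A1*, *MYL9* and *VCL*. *SPARC*, a matrix glycoprotein, was at 1.22 with siDONSON-1, 0.42 with siDONSON-3 and -1.28 with siDONSON-2. *CALD1*, the actin regulator caldesmon, was at 0.84, 0.58 and -1.29. *COL1A1*, a collagen I chain, was at 0.13, -0.50 and -1.87. *VCL*, vinculin of focal adhesions, was at 0.62, 0.52 and -0.53. With siDONSON-2 each of them was below the control. Other members were not, such as *COL6A2*, a collagen VI chain, at -0.43, -0.19 and 0.45. Of 20 YAP and TEAD targets, 12 (60%) were below both other arrays, and *CCN2*, *MYOF* and *NUAK2* were past the rule, with a median difference of -0.38. *CCN2* and *CCN1* are members of the TGF-beta list as well.

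Interferon-stimulated genes are of interest because double-stranded RNA can trigger them. Of 28 measured genes, 17 (60.7%) were below both other arrays, against 35.6% of all genes, with a median difference of -0.26. *IFI44* was at 1.13 with siDONSON-1, 0.12 with siDONSON-3 and -1.14 with siDONSON-2, and *TRIM22*, an antiviral ubiquitin ligase, was at 0.69, 0.85 and -0.68. These were the 2 members past the rule, both lower. By the rule 0.935% of all genes were higher and 1.92% lower. Other members were not lower with siDONSON-2, such as *HERC6*, an interferon-induced HERC family gene, at -0.52, 0.07 and 0.74. Of 12 genes that sense double-stranded RNA or relay it, 8 were below both, with a median difference of -0.19 and 0 past the rule. *IFIH1*, the sensor MDA5, was at 0.62, 0.58 and -0.40. The RNA interference machinery, 16 genes, had a median difference of -0.09, and 0 passed the rule. *AGO2*, the slicer Argonaute, was at -0.17, -0.52 and -0.10, and *DICER1* at 0.54, 1.02 and 0.61.

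A list of motile cilia genes, added after the values were seen, had 5 of 20 measured members higher by the 2-fold rule and 0 lower. Over all genes these shares were 0.935% and 1.92%. Of the 20, 12 (60%) were above both other arrays and 6 (30%) below both, against 37.9% and 35.6% of all genes. Besides *CCNO* the 5 higher members were the dynein arm and assembly genes *DNAH2*, *ODAD4*, *ZMYND10* and *DNAAF3*. *DNAH2* was at -1.07 with siDONSON-1, -0.53 with siDONSON-3 and 0.82 with siDONSON-2, and *ZMYND10* at -0.86, -0.47 and 0.84. *FOXJ1*, the master regulator of motile cilia, was not among them, at -0.54, -0.70 and -1.27. The list's median difference was 0.31 and moved between 0.02, without a filter on dim probes, and 0.60, without siDONSON-3.

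The remaining lists are given by their medians and the members past the rule, by which 0.935% of all genes were higher and 1.92% lower. The 59 cytosolic ribosomal protein genes had a median difference of -0.01, with 0 past the rule, and 14 reference genes one of -0.06. For cholesterol and fatty acid synthesis it was -0.01, with *MSMO1*, a sterol oxidase, lower at 0.47, 0.48 and -0.99. *MSMO1* was not bright in both channels on all arrays, and the software's error of its difference was 0.52. Hypoxia and glycolysis genes had a median of -0.14, with *EGLN3*, an oxygen sensor, lower at 0.28, 0.41 and -1.41. The median of that list was -0.31 without siDONSON-1 and -0.056 without siDONSON-3. Immediate early genes had one of -0.03, with *EGR2* higher at -0.81, 0.01 and 1.09 and *KLF10* lower, at 1.61 and 1.19 with the other siRNAs and at the control level with siDONSON-2. Their median was -0.27 without siDONSON-1 and 0.062 without siDONSON-3. NF-kB targets had 0.26, with *CXCL8*, the chemokine interleukin 8, higher at -0.05, 0.66 and 1.70. Their median was 0.12 without siDONSON-1 and 0.40 without siDONSON-3. NRF2 targets had 0.05, with *SLC7A11* alone past the rule. The 13 neighbours of *DONSON* on chromosome 21 had 0.01, and 0 passed the rule.

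**Figure D5:**
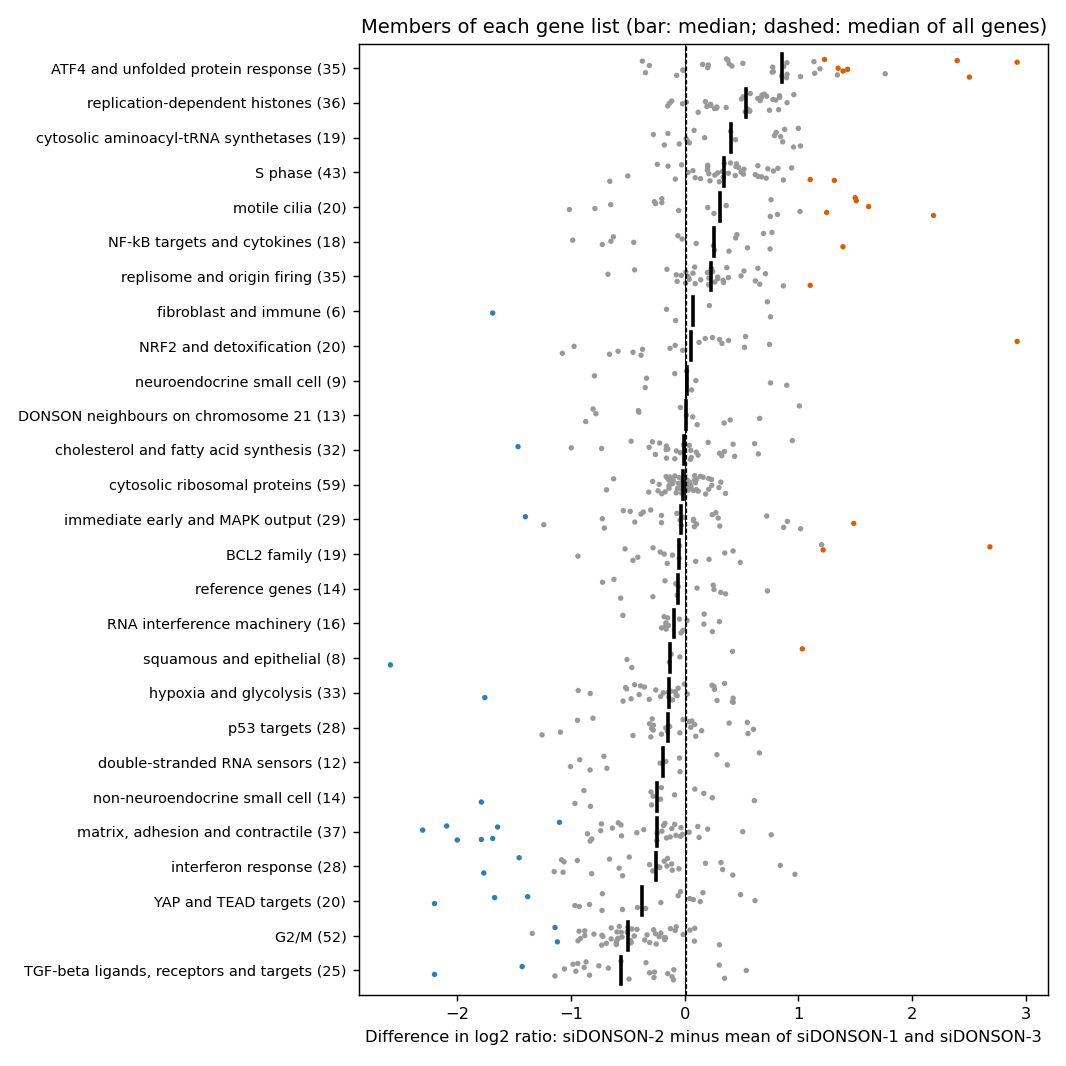
Difference of siDONSON-2 from the mean of siDONSON-1 and siDONSON-3 in log2 ratio for each measured member of 27 gene lists (their number in parentheses), with the list median as a bar, members past the 2-fold rule in orange and blue, and the median of all genes dashed. The ATF4 and unfolded protein response list has the highest median, 0.85, and the TGF-beta list the lowest, -0.56.

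The cell type was checked in the control channel. Of 20 neuroendocrine markers of small cell lung cancer, 7 were well above background on all 3 arrays, among them *NEUROD1*, *CHGA*, *SYP* and *DLL3*, while *INSM1* and *NCAM1* were not. Of 16 non-neuroendocrine markers 11 were above background, *YAP1*, *REST* and *VIM* among them. Of 16 squamous and epithelial markers 6 were, and of 15 fibroblast and immune markers 5. The median difference of siDONSON-2 was 0.02 for the neuroendocrine list and -0.25 for the non-neuroendocrine list, in which *CAV1* was past the rule at 0.48, 0.77 and -1.17. *CAV1*, also in the matrix list above, was not well above background in the control channel on all 3 arrays. In the squamous list, with a median of -0.13, *KRT17*, a basal keratin, was lower at -0.14, -0.38 and -2.85, and *TP63* was higher at -0.97, -1.03 and 0.03. *KRT17* was not bright in both channels on all 3 arrays. The fibroblast and immune list had a median of 0.07.

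The higher and lower genes were also read on the 5 other arrays, which took no part in choosing them. The higher genes had medians of -0.08 to 0.11 there. The lower genes had a median of 0.33 in EBC-1 cells with *miR-150-3p*, where 139 of 196 (70.9%) were above the control, against 52.8% of all genes. In SK-MES-1 cells it was 0.13, and on the *LOXL2* edited arrays 0.11 to 0.15. Over all genes the medians of these arrays were 0.01 to 0.03.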

How the data were processed

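SBC-3 cells that received siDONSON-1, siDONSON-2 or siDONSON-3 were analysed, with 1 two-color Agilent array each. All 8 arrays of the series lie on 1 slide, so a slide block could not be fitted. The authors deposited scanner output of Agilent Feature Extraction 12.1.1.1, which holds intensities of both channels and log10 ratios of red over green with an error and a p-value. The processed intensities are background-subtracted and dye-normalized by that software in linear and lowess steps. The deposited table of the whole series repeats the log10 ratios. It was used as a check, with a largest difference of 0. The software's p-values were not used.

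Log2 ratios were computed from the deposited processed intensities. Spots of a probe were averaged after 85 to 133 outlier spots per array, of 60901, were left out, and no spot was saturated (0). Genes were given the mean of their probes well above background in at least 1 channel on all 3 arrays. Between 49.6% and 53.7% of spots were well above background in red and between 42.2% and 43.0% in green. The median software error of a log2 ratio was 0.22. The number of arrays limits the precision. Of 50096 accessions, 24782 matched a RefSeq symbol. The array files name genome build hg19 and the gene table GRCh38.p14, so only names were taken from that table. Promoters are from RefSeq on GRCh38.p14.

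limma 3.58.1 in R 4.3.3 fitted siDONSON-2 against the mean of the others with Benjamini-Hochberg adjustment at 0.05, and was tested on simulated data. Alternatives were normexp (offset 50) with loess, on median signals because the files hold no mean signals, median centering, other filters, the brightest probe, the red channel alone, other sources of spread and leaving out each array. Named genes are *DONSON*, the 12 highest and 12 lowest differences past the 2-fold rule that were bright in both channels, and, from each list, members past the rule with up to 4 further members of largest difference. Genes named outside this rule were chosen after their values were seen. The members and lists were chosen with earlier results of these data known. The paper's text does not describe the *DONSON* arrays.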

Additional observations from a re-analysis of the deposited data

Results flagged for a closer look

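For 21 of the 24 named genes, siDONSON-2 lay on one side of the control and both siDONSON-1 and siDONSON-3 on the other. The 24 genes were chosen by their differences on the same arrays, which favors such a pattern, so it only describes them. With 1 array per siRNA it was not tested for any of them. The differences of siDONSON-2 from the mean of the others were 2.95 for *VLDLR-AS1*, 2.93 for *SLC7A11*, 2.69 for *HRK*, 2.64 for *CTH*, 2.52 for *INHBE* and 2.51 for *ASNS*. They were 2.47 for *FUT1*, 2.40 for *TRIB3*, 2.35 for *SPTBN1*, 2.19 for *CCNO* and 2.17 for *PAX6*. Among the lower genes they were -2.72 for *CD24*, -2.67 for *PKDCC*, -2.47 for *RD3*, -2.46 for *RASSF4* and -2.43 for *TKTL1*. For *IQCJ-SCHIP1* and *PLAC8* the difference was -2.42 each, for *ITGB1* -2.31, for *CFI* -2.25 and for *LGALS3* -2.22. The *SLC7A11* and *CFI* values of siDONSON-1 and siDONSON-3 were more than 1 log2 unit apart. The siDONSON-2 value of *INHBE*, 0.09, and the siDONSON-3 values of *CFI*, *LGALS3* and *RASSF4*, 0.02, 0.06 and 0.20, were within the software's error of the control.

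The medians of 14 gene lists were likewise on opposite sides of the control, also untested. The median differences were 0.54 for replication-dependent histones, 0.40 for aminoacyl-tRNA synthetases, 0.35 for S phase, 0.31 for motile cilia and 0.23 for the replisome list. They were -0.56 for the TGF-beta list, -0.38 for YAP and TEAD targets, -0.26 for the interferon response, -0.25 for non-neuroendocrine markers and -0.25 for matrix, adhesion and contractile genes. For double-stranded RNA sensors it was -0.19, for the RNA interference machinery -0.095, for reference genes -0.061 and for cholesterol and fatty acid synthesis -0.0065, and the array medians of the last 3 lay within 0.1 of the control. The siDONSON-2 medians of the replisome, aminoacyl-tRNA synthetase and YAP and TEAD lists, 0.0092, 0.0036 and -0.0093, lay at the control level.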

How the results depend on the processing

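limma called 0 genes also after normexp with loess, median centering, both dim-probe filters, the brightest probe, the red channel alone, robust moderation and counting of accessions without a symbol, with 1404 to 2015 genes at an unadjusted p under 0.05. It called 270 when the *LOXL2* edited arrays informed the spread and 58 with all 8 arrays. Leaving out 1 of the other siRNA arrays gave 1023 to 1748 calls, with the spread taken from the *LOXL2* edited arrays. The 412 genes more than 2-fold from both others became 52 after normexp with loess, 938 without a filter on dim probes (372 shared), 650 with unnamed accessions, 718 to 1002 against 1 other array, 104 at a difference over 1.5 and 2143 at a difference over 0.5. The cause of these shifts was not tested, except where the rule itself changed. More genes enter without a filter or with unnamed accessions, fewer pass a larger difference, and a gap from 1 array is a weaker condition. The runs against 1 other array counted only genes also measured on the *LOXL2* edited arrays. These were 13677 genes without siDONSON-1 and 13888 without siDONSON-3.

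The difference of *DONSON* stayed positive, from 0.06 after normexp with loess to 0.38. Each of the 24 named genes kept its direction in every alternative run for it, and the smallest value was 0.161 times the reported one, for *SCP2* without a filter on dim probes. The list medians kept their sign in all 8 alternatives for the ATF4, S phase, replisome, histone, G2/M, TGF-beta, interferon, double-stranded RNA sensor, RNA interference and non-neuroendocrine lists, for hypoxia, and for the 4 lists added after the values were seen. Those of the other 12 lists changed sign in at least 1. After normexp with loess the medians were -0.16 for the interferon, -0.12 for the non-neuroendocrine, -0.23 for the YAP and TEAD and 0.083 for the motile cilia list. The NF-kB median was -0.04 without a filter and the ribosomal and reference medians were 0.08 and 0.10 in the red channel. No paired analysis was possible because each siRNA has 1 array. Without a second array per siRNA, the precision of a single value cannot be known.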
